A study of Drosophila melanogaster with 12 samples.

Results

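The genes described here are the 8 that break down tryptophan through kynurenine, turn its products into eye pigment, or carry eye pigment precursors, in the fruit fly Drosophila melanogaster. They are v (vermilion), KFase, cn (cinnabar), Kyat, cd (cardinal), st (scarlet), w (white) and bw (brown), chosen by FlyBase symbol among the 17895 gene rows of the deposited table. All 8 were found, and all 8 passed the filter on low counts with 14155 genes in all.

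RNA was sequenced from single heads of females aged 21 days. The 4 groups of 3 libraries were SIRT6 KO flies fed the TDO2 inhibitor 680C91, SIRT6 KO flies fed its solvent dimethyl sulfoxide (DMSO), w1118 flies fed the inhibitor, and w1118 flies fed DMSO. The inhibitor was at 100 µM in the yeast part of the diet, and feeding ran from the day of eclosion to the freezing of the flies. The labels give neither the SIRT6 allele nor the allele of w in the KO flies.

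In flies, v encodes tryptophan 2,3-dioxygenase, the enzyme that opens the tryptophan ring and the fly counterpart of the TDO2 that the inhibitor blocks. Downstream enzymes either send kynurenine towards 3-hydroxykynurenine and the brown ommochrome pigments of the eye, or towards kynurenic acid. ABC transporter subunits carry the pigment precursors into granules of the pigment cells and photoreceptors. Much of the tryptophan breakdown takes place in fat body, a liver-like tissue of which a head holds a variable amount.

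Per kilobase of exon, v was the most abundant of the 8 at 44.8 ± 25.6 CPM per kb (SD, n = 12 libraries). CPM is the gene's counts scaled to a common library total, after each total was multiplied by its TMM factor from edgeR. These factors were 1.01 to 1.09 in KO libraries, 1.37 in w1118 with DMSO 2 and 1.18 in w1118 with inhibitor 2. In the rest of the w1118 libraries they were 0.79 to 0.89, so the scaling differed between genotypes. Kyat had 25.0 ± 6.97 and bw 22.8 ± 4.86 CPM per kb, and these neighbours in the order overlapped. KFase followed at 11.6 ± 2.78, st at 7.08 ± 2.87, cd at 2.72 ± 0.747 and w at 1.97 ± 0.333 CPM per kb. The lowest was cn at 0.193 ± 0.0884 CPM per kb, from 6 to 25 counts in a library. It reached the cutoff of the filter in 1 library of KO with inhibitor, 2 of KO with DMSO, 2 of w1118 with inhibitor and all 3 of w1118 with DMSO.

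The libraries held 24633705 to 44545859 counts. Sirt6, measured as a check of the labels, averaged 2.20 ± 0.264 CPM in KO with inhibitor, 2.09 ± 0.218 in KO with DMSO, 1.77 ± 0.345 in w1118 with inhibitor and 2.63 ± 0.146 in w1118 with DMSO (SD, n = 3 each), so the transcript was not lost in the libraries labelled KO, and gene counts do not show whether it was intact. Both w1118 libraries numbered 2 stood apart. Yolk protein transcripts (Yp1, Yp2 and Yp3, made by female fat body) took 1.93% of gene counts in w1118 with inhibitor 2 and 0.429% in w1118 with DMSO 2, against 9.97% to 21.8% in the other 10 libraries. The mean log2 CPM of 10 other fat body markers was 7.75 and 5.29 in those libraries, against 8.56 to 9.80 in the rest. Results are therefore given with and without both. In RNA from whole heads, fewer cells of a type and less RNA per cell cannot be told apart.

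Across genotypes, st and KFase were lower in KO heads and passed the test. Averaged over both treatments, st was at 0.580 and KFase at 0.729 of the w1118 level, and 7 of the 8 fold changes were below 0, with cd the exception. The members' median was -0.43 on the log2 scale and the median of all 14155 genes -0.07. The test called 11.1% of all genes in this comparison, 5.78% as lower in KO. Without both libraries of little yolk, 6 of the 8 passed, all lower in KO, in a setting that called 29.1% of 14303 genes and 12.5% as lower.

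**Figure D1:**
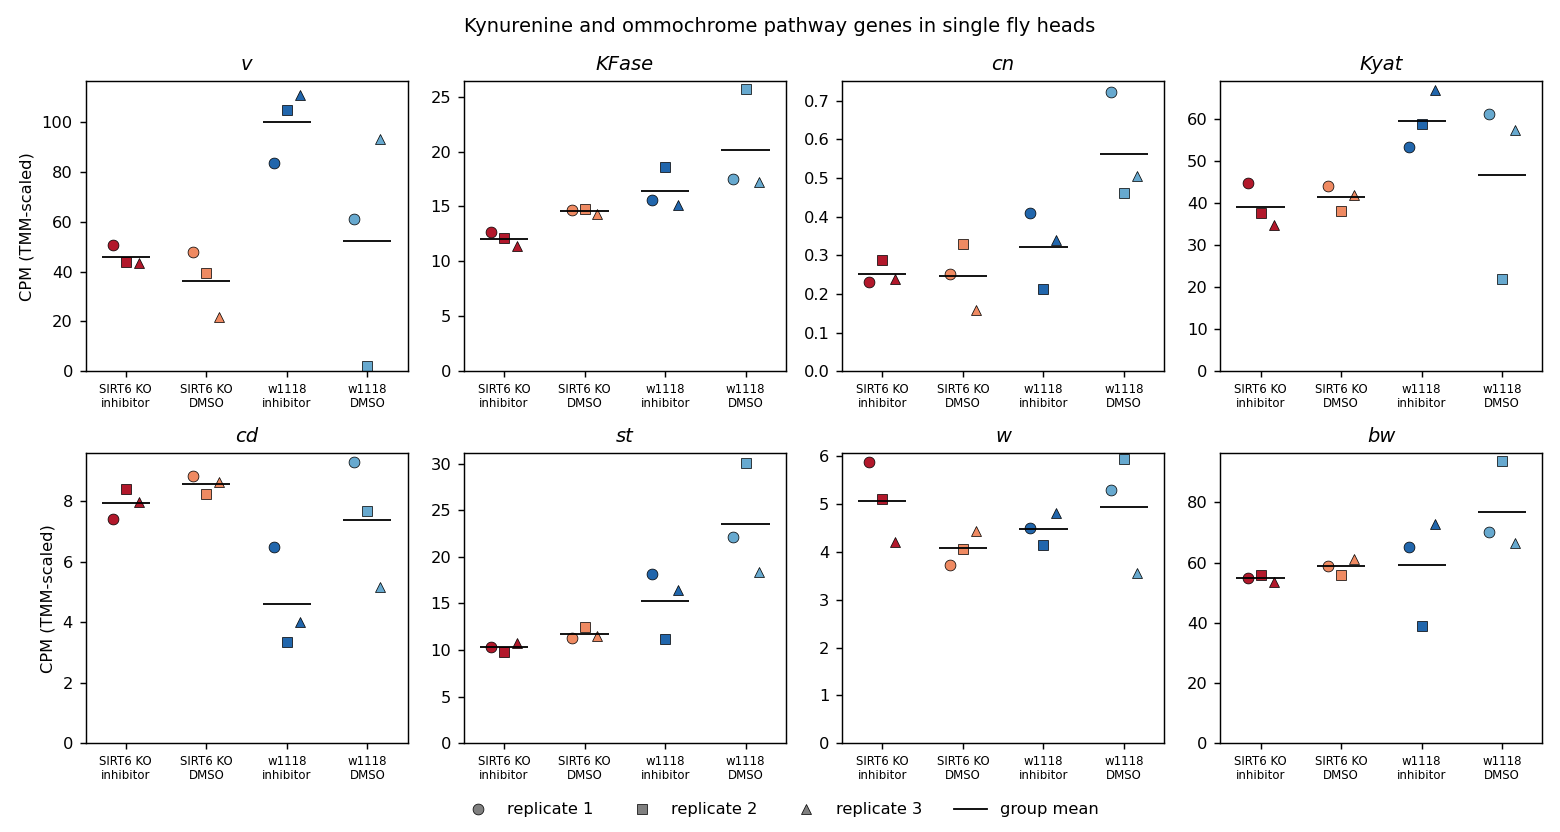
Level of each of the 8 genes in CPM (vertical axes, from 0) in every library of the 4 groups, with SIRT6 KO left of w1118; symbols mark the replicate number and bars the group mean. The square of w1118 with DMSO stands at 2.12 CPM for v and at 30.1 CPM for st, and the 6 KO libraries of st lie at 9.74 to 12.5 CPM.

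The first enzyme, v, is encoded on X from 10923972 to 10925631 (BDGP6.54, plus strand). It had 50.6, 43.8 and 43.3 CPM in KO heads with inhibitor, 48.0, 39.3 and 21.7 CPM in KO heads with DMSO, 83.5, 105 and 111 CPM in w1118 heads with inhibitor, and 61.2, 2.12 and 93.0 CPM in w1118 heads with DMSO. With inhibitor all 3 KO heads lay below all 3 w1118 heads, while with DMSO the groups overlapped because of the 1 w1118 head with almost no v. Averaged over treatments, the log2 difference of KO from w1118 was -0.82, with an SE of 0.61 and a 95% interval of -2.17 to 0.53, and it did not pass (edgeR adjusted p = 0.418). It was -1.12 with inhibitor (SE 0.86, adjusted p = 0.546) and -0.52 with DMSO (SE 0.86, adjusted p = 0.817).

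The error of v depended on 1 library. Without w1118 with DMSO 2, the averaged effect was -1.03 with an edgeR adjusted p of 0.00713, and without both libraries of little yolk it was -1.01 (SE 0.22, edgeR adjusted p = 0.00970). With the fat body score as a covariate in all 12 libraries it was -0.70 (SE 0.39, edgeR adjusted p = 0.237). With DMSO alone the effect turned to 0.26 when w1118 with DMSO 3 was left out (edgeR adjusted p = 0.952).

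KFase (2L, 6487342 to 6488756, minus strand) encodes kynurenine formamidase, which hydrolyses the product of the v enzyme to kynurenine. Its level was 12.7, 12.1 and 11.4 CPM in KO with inhibitor, 14.7, 14.8 and 14.3 CPM in KO with DMSO, 15.6, 18.6 and 15.1 CPM in w1118 with inhibitor, and 17.5, 25.7 and 17.2 CPM in w1118 with DMSO. In TMM-scaled CPM every KO head lay below every w1118 head, whichever treatment it had. The share of all genes separated so was not computed. Before scaling the heads overlapped. KO with DMSO 1 had 527 counts of 34975474, and w1118 with DMSO 1 had 485 of 35175963. KFase fell by 0.46 on the log2 scale in KO, averaged over treatments (SE 0.11, 95% interval -0.70 to -0.21, edgeR adjusted p = 0.0259). The effect was -0.46 with DMSO (SE 0.15, edgeR adjusted p = 0.138) and -0.45 with inhibitor (SE 0.15, edgeR adjusted p = 0.152).

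The size of the KFase difference depended on the head of w1118 with DMSO 2, its highest library. Without that library the averaged effect was -0.27 (edgeR adjusted p = 0.0241), and without both libraries of little yolk -0.23 (SE 0.06, edgeR adjusted p = 0.0201). Leaving out any 1 of the 6 KO libraries or any 1 of the 3 w1118 libraries with inhibitor ended the call, with edgeR adjusted p-values of 0.0536 to 0.0982. On 2L, KFase shares 235 of its 1363 exon bases with Daxx on the opposite strand, and the sources used here do not say whether counting used strand. Daxx did not pass in any genotype comparison (smallest edgeR adjusted p = 0.743).

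cn (2R, 7782797 to 7785067, minus strand) encodes kynurenine 3-monooxygenase, the step to 3-hydroxykynurenine. It was found at 0.231, 0.287 and 0.238 CPM in KO with inhibitor, 0.251, 0.330 and 0.158 CPM in KO with DMSO, 0.409, 0.214 and 0.339 CPM in w1118 with inhibitor, and 0.723, 0.462 and 0.505 CPM in w1118 with DMSO. With DMSO the KO heads lay below the w1118 heads, and with inhibitor the groups overlapped. The genotype effect was -1.19 with DMSO (SE 0.33, edgeR adjusted p = 0.0837), -0.35 with inhibitor (SE 0.35, adjusted p = 0.642) and -0.77 averaged (SE 0.24, adjusted p = 0.0701).

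These cn values stand close to the level of 3 counts, which is 0.0703 to 0.126 CPM before TMM scaling. Small differences were therefore not detectable at this depth. The averaged difference passed without both libraries of little yolk (-0.87, SE 0.25, edgeR adjusted p = 0.0333) and with the fat body covariate (-0.80, edgeR adjusted p = 0.0394). An antisense RNA, asRNA:CR45108, covers 1229 of the 1790 exon bases of cn and was itself at 0.162 to 0.506 CPM. Without strand, reads from the pair cannot be told apart, and the cn counts are uncertain for that reason.

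Kyat (3R, 11820381 to 11822493, minus strand) encodes kynurenine aminotransferase, the branch to kynurenic acid. Its values were 44.9, 37.7 and 34.8 CPM in KO with inhibitor, 44.1, 38.2 and 41.9 CPM in KO with DMSO, 53.4, 58.9 and 66.9 CPM in w1118 with inhibitor, and 61.2, 21.9 and 57.5 CPM in w1118 with DMSO. The KO heads were below the w1118 heads with inhibitor, and below 2 of 3 with DMSO, where w1118 with DMSO 2 was the lowest library of the series. The effect was -0.61 with inhibitor (SE 0.31, edgeR adjusted p = 0.319), -0.18 with DMSO (SE 0.31, adjusted p = 0.826) and -0.39 averaged (SE 0.22, adjusted p = 0.274). Without both libraries of little yolk the averaged effect was -0.49 (SE 0.09, edgeR adjusted p = 0.00455), and without w1118 with DMSO 2 alone it was also -0.49 (edgeR adjusted p = 0.00393). With DMSO alone the effect turned to 0.11 without w1118 with DMSO 1 and to 0.05 without w1118 with DMSO 3.

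cd (3R, 22694959 to 22697990, plus strand) encodes a peroxidase-like protein of the last step, in which 3-hydroxykynurenine is joined into ommochrome. It had 7.41, 8.40 and 7.98 CPM in KO with inhibitor, 8.83, 8.22 and 8.64 CPM in KO with DMSO, 6.49, 3.35 and 4.01 CPM in w1118 with inhibitor, and 9.29, 7.66 and 5.15 CPM in w1118 with DMSO. The KO heads lay above the w1118 heads with inhibitor and inside their range with DMSO. Its averaged effect was 0.50 (SE 0.18, edgeR adjusted p = 0.114), from 0.78 with inhibitor (SE 0.26, adjusted p = 0.138) and 0.22 with DMSO (SE 0.26, adjusted p = 0.725). Leaving out w1118 with inhibitor 1 gave an averaged 0.71 that passed (edgeR adjusted p = 0.0231), and DESeq2 called the averaged effect too (0.54, DESeq2 adjusted p = 0.0418).

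Of the transporter subunits, st (3L, 16497651 to 16500460, plus strand) pairs with w to move ommochrome precursors into the granules. st had 10.3, 9.74 and 10.8 CPM in KO with inhibitor, 11.3, 12.5 and 11.5 CPM in KO with DMSO, 18.2, 11.2 and 16.4 CPM in w1118 with inhibitor, and 22.1, 30.1 and 18.4 CPM in w1118 with DMSO. Within each treatment every KO head was below every w1118 head. Over both treatments the difference of KO from w1118 was -0.79 (SE 0.15, 95% interval -1.11 to -0.46, edgeR adjusted p = 0.00747), and this call held in all 20 alternatives, at -0.81 to -0.60. With both libraries of little yolk left out it was -0.69 (SE 0.08, edgeR adjusted p = 0.000526).

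In the comparison within DMSO, st was the 1 member of 8 that passed, where it fell by 1.00 on the log2 scale (SE 0.21, edgeR adjusted p = 0.0260), among 4.10% of all genes that passed and 2.05% that were lower in KO. That call was lost without any 1 of KO with DMSO 1, 2 or 3, KO with inhibitor 1 or 3, or w1118 with DMSO 1 (edgeR adjusted p-values 0.0516 to 0.126), with only the 6 libraries compared in the fit (-0.95, edgeR adjusted p = 0.0693) and with the replicate number as a block (adjusted p = 0.0650). Within the inhibitor, 0 of 8 passed against 3.41% of all genes (1.46% lower in KO). Of the 8, 3 had an unadjusted edgeR p under 0.05, as did 2639 of all 14155 genes, and st was at -0.57 (SE 0.21, edgeR adjusted p = 0.163). DESeq2 also called 0 of 8 there. Without both libraries of little yolk, st and cn passed within DMSO (18.3% of genes called, 7.15% lower), and Kyat, st and bw within the inhibitor (12.8% called, 5.83% lower).

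w (X, 2790599 to 2796466, minus strand) is the subunit shared by both transporters and the gene for which w1118 is named. Its level was 5.88, 5.10 and 4.20 CPM in KO with inhibitor, 3.73, 4.05 and 4.43 CPM in KO with DMSO, 4.50, 4.13 and 4.81 CPM in w1118 with inhibitor, and 5.28, 5.94 and 3.56 CPM in w1118 with DMSO. All groups overlapped, and the averaged effect was -0.05 (SE 0.14, 95% interval -0.37 to 0.27, edgeR adjusted p = 0.852). Which parts of w were read is not visible in gene totals, so these do not tell the w alleles apart.

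bw (2R, 23527805 to 23538499, minus strand) pairs with w to carry precursors of the red pteridine pigments, and so belongs to the transporters but not to ommochrome formation. It had 55.0, 55.9 and 53.4 CPM in KO with inhibitor, 59.0, 55.9 and 61.3 CPM in KO with DMSO, 65.3, 39.0 and 72.8 CPM in w1118 with inhibitor, and 70.3, 93.6 and 66.6 CPM in w1118 with DMSO. With DMSO the KO heads lay below the w1118 heads, and with inhibitor they lay inside the w1118 range, which w1118 with inhibitor 2 widened downwards. The averaged effect was -0.25 (SE 0.15, edgeR adjusted p = 0.308), and without both libraries of little yolk -0.20 (SE 0.05, edgeR adjusted p = 0.0145).

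By ranges alone, KFase, cn, st and bw had all KO heads below all w1118 heads with DMSO, where 14.0% of all genes were separated in that direction and 24.1% in either. With inhibitor v, KFase, Kyat and st were separated below and cd above, where 15.2% of all genes were separated below, 12.5% above and 27.7% in either direction. Only KFase and st were separated in the same direction under both treatments, and the share of all genes separated so under both was not computed. The overlapping genes kirre (around w), CG43373 (around st) and mi (sharing 456 exon bases with bw) did not pass in any comparison of genotypes, the smallest edgeR adjusted p being 0.0765 for kirre.

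**Figure D2:**
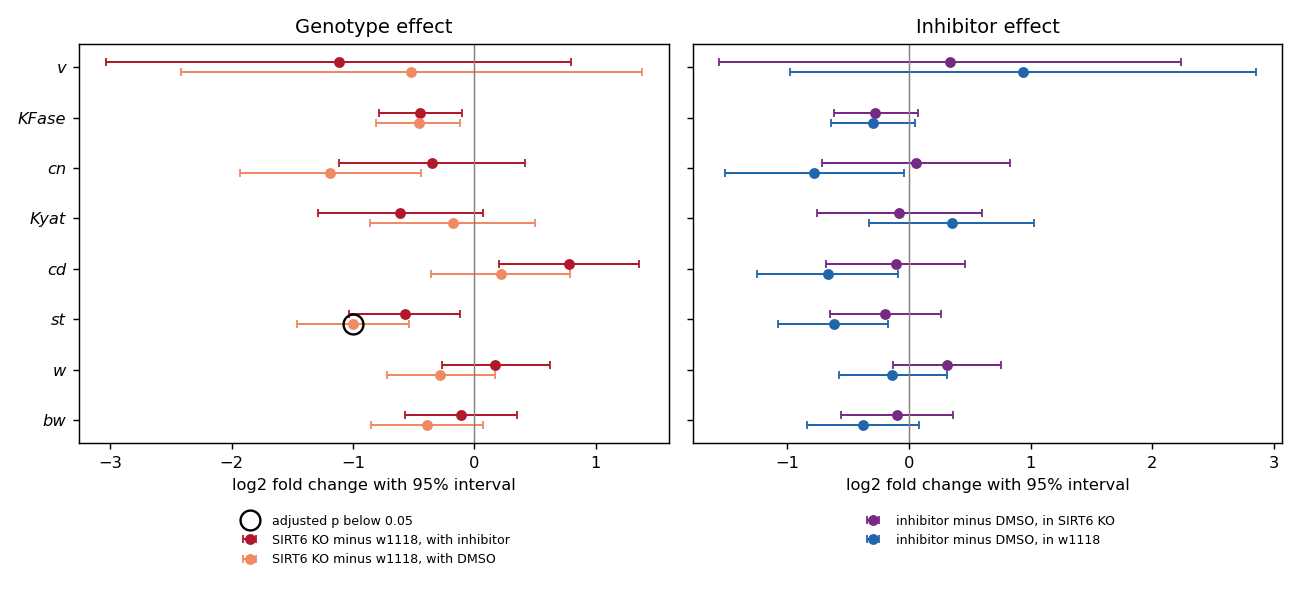
Log2 fold changes (horizontal axis) with 95% intervals from edgeR for the genotype effect, SIRT6 KO minus w1118 (left), and the inhibitor effect, inhibitor minus DMSO (right), per gene; rings mark an adjusted p below 0.05. Among the genotype effects within a treatment, only that of st with DMSO has a ring, and no inhibitor effect has one.

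**Figure D3:**
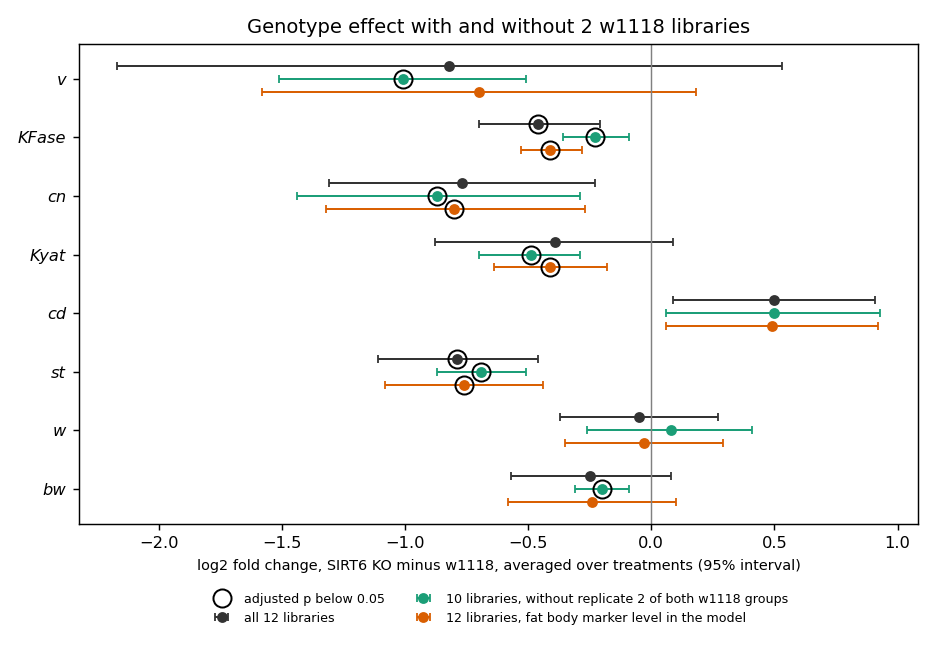
Averaged genotype effect on each gene (log2 fold change, SIRT6 KO minus w1118, with 95% interval) in all 12 libraries, with the fat body covariate, and without both w1118 libraries of little yolk; rings mark an adjusted p below 0.05. The interval of v runs from -2.17 to 0.53 in all libraries and from -1.51 to -0.51 without the 2, and 4 genes have a ring with the covariate.

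For the TDO2 inhibitor, none of the 8 genes of the pathway passed the test, in KO heads or in w1118 heads. In KO heads 0 of 8 passed, against 0.00706% of all genes, and 0 of the 8 had an unadjusted p under 0.05, while 523 of the 14155 did. In w1118 heads 0 of 8 passed, against 0% of all genes. There 3 of the 8 (st, cd and cn) and 1046 genes in all had an unadjusted edgeR p under 0.05, and DESeq2 called 48 genes and none of the 8. The members' median was -0.09 in KO, against -0.01 for all genes, and -0.34 in w1118, against -0.01. The members' median in w1118 was -0.06 without both libraries of little yolk.

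v, which encodes the target, was at 1.26 of the DMSO level with inhibitor in KO heads (log2 0.34, SE 0.85, 95% interval -1.56 to 2.24, edgeR adjusted p = 1.00). In w1118 heads it was at 1.92 of the DMSO level (log2 0.94, SE 0.86, 95% interval -0.98 to 2.85, edgeR adjusted p = 0.882), with overlapping groups. Without w1118 with DMSO 2 and w1118 with inhibitor 2, or under any of the other alternatives, the w1118 value lay between 0.35 and 1.67 and did not pass. The widest shifts elsewhere were in w1118: cn at -0.78 (SE 0.33, edgeR adjusted p = 0.644), cd at -0.67 (SE 0.26, adjusted p = 0.628) and st at -0.62 (SE 0.20, adjusted p = 0.555). With both libraries of little yolk left out, these were -0.67 for cn (SE 0.38, edgeR adjusted p = 0.813), -0.43 for cd (SE 0.29, adjusted p = 0.867) and -0.20 for st (SE 0.12, adjusted p = 0.840).

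Ranges separated KFase, st and bw below DMSO in KO heads, where 6.36% of all genes were separated in that direction and 13.0% in either. In w1118 heads cn and st were separated below, where the shares were 4.78% and 7.91%. Averaged over genotypes, 0 of 8 passed (0.00706% of all genes), with 2 of the 8 and 751 of all 14155 genes at an unadjusted edgeR p under 0.05. The difference between the genotype effects with inhibitor and with DMSO, tested as an interaction, passed for 0 of 8 members and 0% of all genes, with 0 members and 685 genes at an unadjusted p under 0.05. DESeq2 called 64 genes in the interaction and none of the 8. The KO and w1118 comparisons of one treatment share their libraries with the inhibitor comparisons, so the separations listed are not independent of each other.

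The level of v ran with that of a fat body gene from head to head. Over the 12 libraries, the gene whose log2 CPM was most like that of v was Apoltp, which encodes a lipid transfer particle made by fat body (Pearson r = 0.989, and 0.967 in the 10 libraries with more yolk). Apoltp had 1400, 1334 and 1278 CPM in KO with inhibitor, 1450, 1033 and 787 CPM in KO with DMSO, 3161, 3408 and 4040 CPM in w1118 with inhibitor, and 2555, 92.3 and 3321 CPM in w1118 with DMSO. Like v, it was lowest in w1118 with DMSO 2 and high in w1118 with inhibitor 2, although the yolk protein genes were low in both. Apoltp is 1 of the 10 fat body markers, and their mean did not follow it there. The mean log2 CPM of the 10 was 7.75 in w1118 with inhibitor 2, against 9.23 and 9.80 in the other w1118 heads with inhibitor. Apoltp differed by -1.14 between KO and w1118, averaged (SE 0.59, edgeR adjusted p = 0.250), and -1.35 without those libraries (SE 0.17, edgeR adjusted p = 0.000891).

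**Figure D4:**
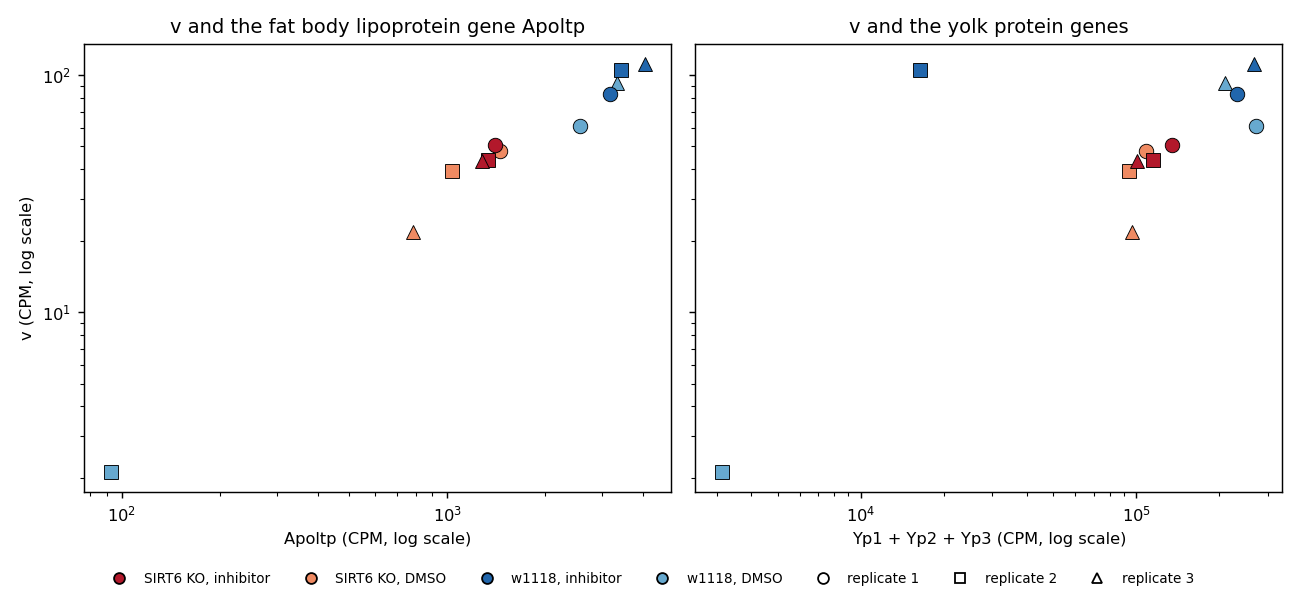
Level of v (vertical axes, CPM on a log scale) against Apoltp (left) and the summed yolk protein genes (right) in the 12 libraries, coloured by group, with symbols for the replicate number. w1118 with DMSO 2 is lowest on every axis, at 2.12 CPM of v and 92.3 CPM of Apoltp, while w1118 with inhibitor 2 has 105 CPM of v beside little yolk.

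The next most like v were Nepl12 (r = 0.979), fon (0.978), CG32191 (0.978) and Adk2 (0.975), each at 0.892 or more in the 10 libraries. For Kyat they were the proteasome subunit gene Rpn6 (0.981), snoRNA:Or-CD2 (0.979) and the proteasome subunit gene Rpn11 (0.979). These correlations describe 12 libraries that share their depth, scaling and tissue, and the libraries of little yolk weigh on them.

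Among themselves, v and Kyat ran together (r = 0.90, and 0.77 without both libraries of little yolk), as did st with bw (0.81 and 0.87), with cn (0.81 and 0.86) and with KFase (0.81 and 0.87). The pairs v and bw (r = -0.56, and 0.64 without both), Kyat and bw (-0.30 and 0.95) and Kyat and st (-0.11 and 0.85) changed sign. The enzymes v and Kyat were lowest in w1118 with DMSO 2, where KFase, st, bw and w were highest. Markers of other cells stood apart in that head too. Its 5 haemocyte markers summed to 1055 CPM, against 104 to 338 CPM in the other 11 libraries, and its 4 glial markers to 1276 CPM, against 598 to 1120 CPM. Its 4 neuron markers summed to 1823 CPM, within the 1140 to 1835 CPM of the others. Among w1118 heads this was the highest, the rest having 1140 to 1461 CPM. Its 8 photoreceptor markers summed to 38419 CPM. The rest of the w1118 heads had 22383 to 29197 CPM and KO heads 29818 to 39911 CPM. No marker was at 0 in any library. The part of these cells in the pattern was not tested.

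Relative to the mean log2 CPM of the 10 fat body markers, v stood at -3.43, -3.40 and -3.32 in KO with inhibitor, -3.30, -3.32 and -4.12 in KO with DMSO, -2.84, -1.04 and -3.01 in w1118 with inhibitor, and -3.86, -4.16 and -2.83 in w1118 with DMSO. On this scale the v of w1118 with DMSO 2 was close to that of other heads, and w1118 with inhibitor 2 was the one that stood above. The genotype difference in v was -0.53 (two-sided exact permutation test over 400 assignments within treatments, p = 0.265, adjusted p = 0.684) and the inhibitor difference 0.76 (exact permutation p = 0.145, adjusted p = 0.684). The smallest p the test allows is 0.005. Without w1118 with inhibitor 2 the differences in v were -0.21 for genotype and 0.45 for the inhibitor, and without both libraries of little yolk -0.35 and 0.31. Leaving out w1118 with DMSO 3 gave -0.33 for genotype, and none of these passed.

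For st the same measure ran from -5.73 to -5.32 in KO with inhibitor, -5.39 to -4.97 in KO with DMSO, -5.76 to -4.27 in w1118 with inhibitor, and -5.32 to -0.37 in w1118 with DMSO. The groups overlapped, and the value of -0.37 came from w1118 with DMSO 2, the head with least fat body RNA. The genotype difference was -1.01 (exact permutation p = 0.240, adjusted p = 0.684). None of the 16 tests (8 genes, genotype and inhibitor) passed, the other adjusted exact permutation p-values being 0.684 to 0.910. After adjustment over 16 tests, a single test at the smallest permutation p of 0.005 could not pass. The lack of calls therefore does not show that levels relative to fat body were equal. Without both libraries of little yolk the genotype difference was -0.01 for st.

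With all libraries 1 of the 10 fat body markers passed between genotypes, averaged over treatments, against 11.1% of all genes. This was Fbp1, higher in KO (1.25, edgeR adjusted p = 0.0469) at low levels of 0.738 to 5.02 CPM. The median of the 10 was -0.22. Without both libraries of little yolk 12.5% of all 14303 genes were lower in KO, and of the markers 0 were higher and 6 lower. Their summed level was 28575 to 29662 CPM in KO with inhibitor, 15418 to 32619 in KO with DMSO, 15938 to 51373 in w1118 with inhibitor and 1706 to 44736 in w1118 with DMSO, with no marker at 0 in any library. Their part in the v and Kyat values was not tested beyond the covariate, with which the averaged genotype effect passed for Kyat (-0.41, SE 0.10, edgeR adjusted p = 0.0206) and not for v. With that covariate KFase, cn, Kyat and st passed, all lower in KO, among 21.1% of all genes called and 11.9% lower.

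The genes most like st were CG5326 (r = 0.983), se (0.975) and CG5835 (0.973). The gene se (sepia) encodes the enzyme that makes the precursor of the red drosopterins, and it is also in the list of pteridine genes below. It had 27.1, 26.8 and 23.3 CPM in KO with inhibitor, 26.7, 33.0 and 25.9 CPM in KO with DMSO, 50.4, 28.5 and 47.3 CPM in w1118 with inhibitor, and 54.0, 75.2 and 49.9 CPM in w1118 with DMSO. As with st, w1118 with inhibitor 2 was the one w1118 head near the KO level, and w1118 with DMSO 2 the highest of all.

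The retinal pigment cells that hold the granules were followed by Pdh and rdhB, which act in the turnover of the visual chromophore. Pdh had 491, 493 and 450 CPM in KO with inhibitor, 466, 486 and 404 CPM in KO with DMSO, 448, 171 and 445 CPM in w1118 with inhibitor, and 539, 828 and 513 CPM in w1118 with DMSO. The same w1118 heads numbered 2 were the extremes at both ends, and KO differed from w1118 by -0.02 (SE 0.23, edgeR adjusted p = 0.969). rdhB in contrast was higher in KO (1.36, SE 0.16, edgeR adjusted p = 0.000628), at 30.9 to 36.5 CPM in KO with inhibitor, 35.6 to 37.8 CPM in KO with DMSO, 7.95 to 13.1 CPM in w1118 with inhibitor and 11.8 to 21.6 CPM in w1118 with DMSO. Of 8 photoreceptor markers 2 were higher in KO, trpl (1.42, edgeR adjusted p = 0.000525) and Arr2 (0.57, edgeR adjusted p = 0.0467), and 0 lower, with summed levels of 37889 to 39911 CPM in KO with inhibitor, 29818 to 36172 in KO with DMSO, 22383 to 24123 in w1118 with inhibitor and 23748 to 38419 in w1118 with DMSO. When both libraries of little yolk were left out, 5 of the 8 photoreceptor markers were higher (ninaC, trp, trpl, Arr1 and Arr2) and 0 lower, and of the 4 neuron markers (elav, nSyb, Syt1 and brp) 4 were higher, against 1 (nSyb) in all libraries. Over all genes, 2367 of 14303 were higher in KO without both, against 754 of 14155 in all libraries. The part of eye and neuron content in the lower st was not tested.

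**Figure D5:**
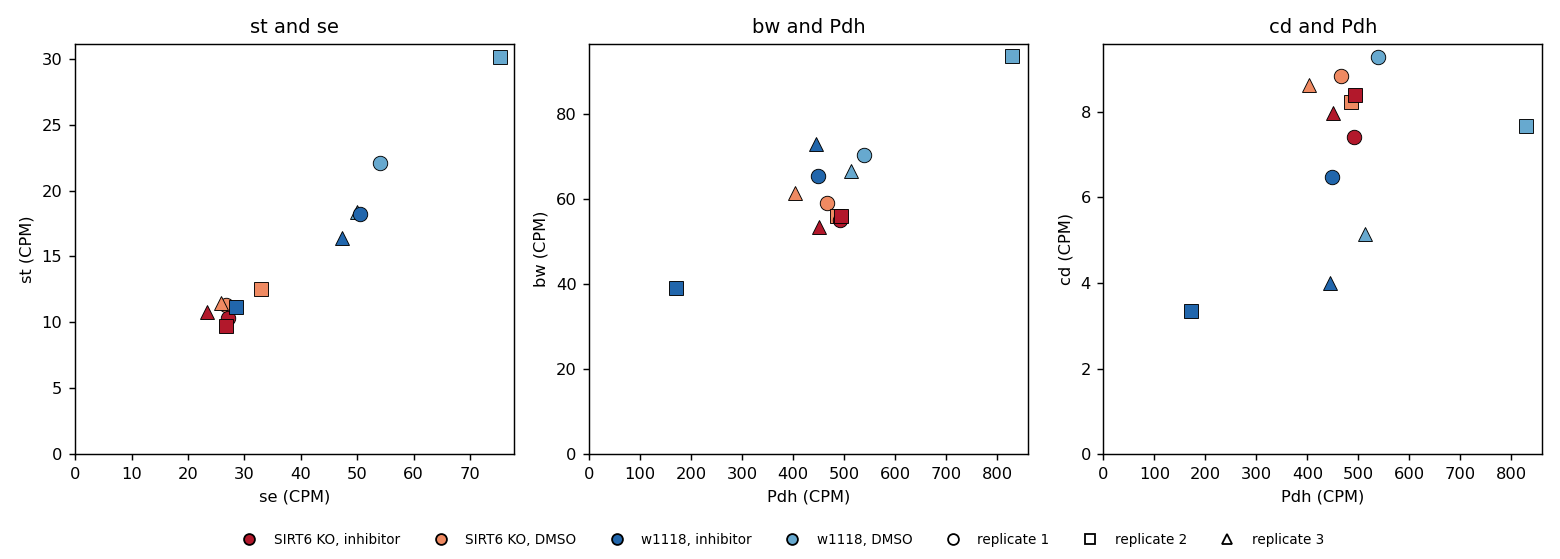
Levels in CPM (both axes from 0) of st against the pteridine gene se, and of bw and cd against the pigment cell gene Pdh, in the 12 libraries, coloured by group, with symbols for the replicate number. w1118 with DMSO 2 lies at the top right for st (30.1 CPM) and bw (93.6 CPM), w1118 with inhibitor 2 lies at 171 CPM of Pdh, and the KO libraries form a tight group.

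Genes most like the others were CG14795 (r = 0.921), CG8925 (0.902) and RhoGAP92B (0.902) for cd, Ssadh (0.974), CG13937 (0.971) and CG7778 (0.953) for bw, and CG4617 (0.888), Ude (0.854) and l(1)G0289 (0.831) for w. For KFase they were Prip (0.970), CG9628 (0.968) and CG6356 (0.959), and for cn, at its few counts, IscU (0.922), HSPC300 (0.920) and CG11378 (0.912). None of these names is another of the 8 genes.

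Other genes that handle tryptophan and its products were followed through a list of 11, of which 3 fell and 0 rose in KO, averaged over treatments (median -0.30, against -0.07 for all genes). Of all genes, 11.1% passed in this comparison and 5.78% were lower in KO. JhI-21, an amino acid transporter subunit, fell by 1.20 (SE 0.12, edgeR adjusted p = 0.000234), with 17.6 to 21.0 CPM in KO with inhibitor and 20.8 to 21.5 CPM in KO with DMSO, against 34.3 to 42.5 CPM in w1118 with inhibitor and 46.4 to 74.5 CPM in w1118 with DMSO. TrpRS, the tryptophanyl-tRNA synthetase, fell by 0.58 (SE 0.07, edgeR adjusted p = 0.000470), and SerT, the serotonin transporter, by 0.35 (SE 0.09, edgeR adjusted p = 0.0356). The tryptophan hydroxylase gene Trhn, which opens the serotonin branch that competes for tryptophan, was at -0.02 (SE 0.10, edgeR adjusted p = 0.905). Without both libraries of little yolk these 3 were lower again, Hn passed as well (-0.70, edgeR adjusted p = 0.00332), and Ddc was higher (0.32, edgeR adjusted p = 0.00765). That setting called 29.1% of all genes, 12.5% as lower.

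Of 10 pteridine genes, whose product is the other class of eye pigment, 5 fell and 2 rose in KO (median -0.34), where 11.1% of all genes passed. Those that fell were se (-0.89, SE 0.16, edgeR adjusted p = 0.00607), Pu (-0.45, edgeR adjusted p = 0.0392), which encodes the entry enzyme GTP cyclohydrolase, Pcd (-0.44, adjusted p = 0.0370), pr (-0.36, adjusted p = 0.0391) and cl (-0.33, adjusted p = 0.0228). DhpD (0.86, SE 0.20, edgeR adjusted p = 0.0219) and mal (0.42, edgeR adjusted p = 0.00413) rose. In the 10 libraries with more yolk, where 29.1% of all genes passed, Pu and pr no longer did (edgeR adjusted p = 0.0584 and 0.0851). There ry (-0.49) and Sptr (-0.21) passed.

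Of 11 genes that build or fill pigment granules, 2 rose and 0 fell (median 0.04), where 11.1% of all genes passed. These 2 were mv (0.44, SE 0.09, edgeR adjusted p = 0.0162) and rb (0.26, SE 0.06, edgeR adjusted p = 0.0243), both of vesicle traffic. In the 10 libraries with more yolk 5 were higher (mv, dor, rb, Rab32 and lt, at 0.53 to 0.21) and 2 lower (or and p, both -0.40). That setting called 29.1% of all genes. None of the genes of these 3 lists passed for the inhibitor in KO, in w1118 or averaged over genotypes.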

How the data were processed

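Single heads gave 12 libraries, 4 groups of 3, of rRNA-depleted total RNA, per the labels' protocols. The labels number the libraries 1 to 3 in each group, each being another fly's head, and state no pairing. The authors deposited 1 table of estimated counts (expected counts), unscaled. Trim Galore 0.6.7, STAR 2.7.9a, Salmon 1.10.1 and the build BDGP6 appear in the submitters' processing notes; settings and use of strand are not given in the sources used here.

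Counts were rounded, FlyBase gene rows (17895 of 24278) were kept, and filterByExpr with a minimum count of 10 left 14155. edgeR 4.0.16 in R 4.3.3 was run with TMM scaling, 1 coefficient per group over all 12 libraries, its quasi-likelihood test and Benjamini-Hochberg adjustment over all genes tested (threshold 0.05). Adjusted p-values are edgeR's unless another tool is named, and log2 fold changes are KO minus w1118 or inhibitor minus DMSO. Log2 CPM has a prior count of 2. Separation means that the TMM-scaled CPM ranges of 3 against 3 libraries do not overlap. The fat body score is the mean log2 CPM of apolpp, Apoltp, Mtp, Lsp2, Fbp1, fit, FASN1, AkhR, srp and Pepck1, and a gene's level relative to it was tested by a two-sided exact permutation test, adjusted over 16 tests. Positions are from the Ensembl annotation of BDGP6.54, through gene identifiers.

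Alternatives were DESeq2 1.42.0, limma 3.58.1 with voom and quality weights, median-of-ratios scaling, 2 other filters, a replicate block, only the groups compared, the fat body score as covariate, leaving out both w1118 libraries of little yolk, and leaving out each library. Leaving out both was added to the permutation test after seeing the data. The scripts were tested on simulated data. The members, gene lists and markers were chosen with earlier results of these data known. Genes named are the 8 members, Sirt6, genes overlapping a member, listed genes that passed, fat body markers, and the 5 (v) or 3 genes most correlated with each member. Kept outside that rule, after their values were seen, were Pdh and Trhn. A level of 3 counts is 0.0703 to 0.126 CPM before TMM scaling, and all other CPM values are TMM-scaled. This floor and the depth cover counting error only, since reads carry no molecular identifiers.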

Additional observations from a re-analysis of the deposited data

Results flagged for a closer look

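A copy of the retrotransposon 412 is annotated inside bw (2R, 23529629 to 23537147, BDGP6.54, same strand, no exon base shared), in rows that no comparison used. It was read in every KO library, with 776 counts as the lowest and 1288 as the highest, against 0 to 27 counts in the 6 w1118 libraries. It held 7.36% to 9.37% of all 412 counts in KO libraries and 0% to 0.235% in w1118 libraries. All 44 annotated copies of 412 together were at 267 to 382 CPM in KO libraries and 275 to 495 CPM in w1118 libraries, so the sum overlapped while the copy did not. Near-identical copies share reads, and how the counting split them was not tested. Whether the copy bears on the counts of bw was not tested.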

How the results depend on the processing

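The number of members that passed was the result that moved most. Within DMSO 1 passed in all libraries, 3 with limma voom, 0 with the replicate block, 0 with only the groups compared, 2 without both w1118 libraries of little yolk and 3 with the fat body covariate, and 0 to 1 when each library was left out. Within the inhibitor 0 passed, 3 with limma voom, 1 with only the groups compared (v, -1.09, edgeR adjusted p = 0.0165), 3 without both and 2 with the covariate, and 0 to 3 without each library. Averaged, 2 passed, 4 with limma voom, 6 without both and 4 with the covariate, and 1 to 4 without each library. Over all genes, limma voom called 2406 within DMSO, 1335 within the inhibitor and 3975 averaged, only the groups compared 343 and 513 (DMSO, inhibitor), the block 396 within DMSO, and the covariate 1382, 1284 and 2986, against 581, 482 and 1572 in the fit reported. For the inhibitor, the interaction and the level relative to fat body markers, 0 passed in every alternative run. Leaving libraries out gives the permutation test fewer assignments and so a larger smallest p. Its 0 therefore does not show that the levels relative to fat body were stable. Over 831 alternative values of single genes, 766 kept direction and call, 17 lost the call, 30 gained it and 18 changed sign; the cause was not tested.

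No reversed value passed. Without each library in turn, the ranges that crossed 0 were, within DMSO, v -1.0 to 0.26 (without w1118 with DMSO 3) and Kyat -0.43 to 0.11 (0.05 without w1118 with DMSO 3); within the inhibitor, bw -0.27 to 0.11 (0.01 without w1118 with inhibitor 1); averaged, w -0.10 to 0.11; and for the inhibitor, cn in KO -0.20 to 0.31 (-0.05 without KO with inhibitor 2) and w in w1118 -0.31 to 0.05. The averaged w was 0.03 with limma voom and 0.08 without both libraries of little yolk, and in w1118 the inhibitor effect on w was 0.03 and 0.10, and on bw 0.03 without both. Relative to fat body markers, the genotype ranges were -1.15 to 0.11 for KFase, -0.14 to 1.02 for cd, -0.71 to 0.49 for w and -0.91 to 0.32 for bw, and the inhibitor ranges -1.23 to 0.04 for KFase, -0.59 to 0.18 for Kyat, -0.81 to 0.39 for w and -1.19 to 0.04 for bw. All turned without w1118 with DMSO 2 except cd, which turned without w1118 with DMSO 1 or 3. Without both libraries the genotype values were 0.45 for KFase, 0.18 for Kyat, 0.76 for w and 0.48 for bw, and the inhibitor value of w was 0.13. There the genotype value of cd kept its sign, at 1.22.

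Same-numbered libraries did not deviate together (mean correlations of 0.02, -0.10, 0.05 and 0.06 over genes in the 4 pairs of groups), and no label pairs them. With the replicate number as a block, 0 of 8 members passed within DMSO (st, adjusted p = 0.0650), and over all genes the averaged genotype comparison gave 1237 calls in place of 1572. Without both libraries of little yolk there were 4161. The split of the 1572 was 754 higher and 818 lower in KO, and 892 and 625 with median-of-ratios scaling. Leaving both libraries out moved the median of all genes from -0.07 to 0.03. At 6 to 25 counts, the depth limits cn.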
